A study of Mus musculus with 3 samples.

Results

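The 10 genes described here encode surface, junction and Tie receptor proteins of differentiating endothelium: Cdh5, Pecam1, Esam, Cldn5, Tek, Tie1, Eng, Cd34, Ecscr and Adgrf5. They were chosen by name, with earlier results of these data known. Every probe set annotated to 1 of these symbols alone was read. That gave 13 of the 34945 probe sets with 1 symbol: 7 genes had 1 probe set, and Cdh5, Eng and Adgrf5 had 2. They are 10 of the 18193 genes with such a probe set, and all 10 are among the 13969 that reached the floor defined below on at least 1 array.

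RNA was hybridised to Affymetrix arrays from A2.snail mouse embryonic stem cells, a line in which doxycycline switches on Snail, a zinc finger repressor of epithelial genes. All cells had differentiated for 3 days in embryoid bodies, suspended clumps in which the germ layers begin to form, with serum and DKK1, which blocks Wnt ligands from outside the cell. The 3 arrays, 1 per group, held sorted Flk1+ cells of a culture that received doxycycline at 250 ng/mL, added on day 2 (named Snail-induced Flk1+ here), Flk1- cells of a doxycycline-treated culture (Snail-induced Flk1-), and Flk1- cells of a culture without doxycycline (untreated Flk1-). Flk1 is the VEGF receptor encoded by Kdr, and the sort was made on its protein. No untreated Flk1+ array and no array of doxycycline-treated cells lacking the Snail transgene was used here, so Snail and doxycycline cannot be told apart, and neither can Snail and the gate in Flk1+ cells. A2.snail is a single line, and the cells were early derivatives of stem cells, not vascular tissue.

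Endothelial cells line blood vessels and hold together through adherens junctions built on VE-cadherin and through tight junctions built on claudins. In the embryo they arise from Flk1-expressing mesoderm, and their surface proteins appear stepwise as mesodermal cells become endothelial or blood progenitors. Angiopoietins acting on the Tie receptors and BMP ligands acting through endoglin later steady the vessel wall.

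The deposited values are intensities, 1 per probe set and array, with medians of 44.6, 42.4 and 42.7 on the Snail-induced Flk1+, Snail-induced Flk1- and untreated Flk1- arrays. Because each group has 1 array, no difference has a replicate check or a p-value, and array number limits precision. A gene is given by its brightest probe set, meaning the one with the highest mean log2 value. Log2 differences are of intensity plus an offset of 9.53, and the floor is 25.6, below which 40 percent of the deposited values lie. A comparison with its lower reading under this floor is given as a bound, the higher reading over 25.6, worded as at least N-fold. Kdr stood at 404, 9.73 and 10.5 in Snail-induced Flk1+, Snail-induced Flk1- and untreated Flk1- cells, so the arrays match their sort labels, which the gate itself fixed. The single Snai1 probe set read 19.8, 13.1 and 29.1 on the same arrays, near or under the floor, and did not check the induction. Bulk intensities cannot tell fewer cells of a type from less RNA per cell.

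Promoter windows of 300 bases around an annotated transcription start were given by RefSeq (GRCm38.p6) for 6 of the 10 genes in 7 windows. Of these, 4 are printed because they span the range of the results: the Tie receptor pair, Adgrf5 with the largest difference, and Cldn5 with the smallest difference between the Snail-induced arrays. Capitals mark every match on either strand to the motifs searched: ETS factors (CGGAAG, and also the variant AGGAAG), a FOX:ETS core (ACAGGAA, which may overlap an ETS match), GATA factors (AGATAA), SOX factors (ACAATG), the Snail E-box (CAGGTG), the SP1 box (GGGCGG) and the TATA box (TATAAA).
Tek, chr4:94739039-94739338, plus strand: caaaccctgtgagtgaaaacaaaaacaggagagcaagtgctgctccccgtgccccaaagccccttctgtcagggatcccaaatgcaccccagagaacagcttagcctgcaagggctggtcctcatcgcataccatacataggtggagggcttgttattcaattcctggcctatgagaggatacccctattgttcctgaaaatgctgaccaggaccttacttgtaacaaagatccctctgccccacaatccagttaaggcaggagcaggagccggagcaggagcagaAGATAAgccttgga
Tie1, chr4:118489800-118490099, minus strand: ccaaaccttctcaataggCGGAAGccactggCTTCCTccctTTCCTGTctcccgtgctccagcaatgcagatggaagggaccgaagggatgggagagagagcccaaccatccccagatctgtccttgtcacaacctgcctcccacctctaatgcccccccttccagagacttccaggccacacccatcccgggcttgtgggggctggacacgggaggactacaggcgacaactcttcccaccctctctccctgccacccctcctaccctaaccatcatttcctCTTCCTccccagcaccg
Adgrf5, chr17:43360181-43360480, plus strand: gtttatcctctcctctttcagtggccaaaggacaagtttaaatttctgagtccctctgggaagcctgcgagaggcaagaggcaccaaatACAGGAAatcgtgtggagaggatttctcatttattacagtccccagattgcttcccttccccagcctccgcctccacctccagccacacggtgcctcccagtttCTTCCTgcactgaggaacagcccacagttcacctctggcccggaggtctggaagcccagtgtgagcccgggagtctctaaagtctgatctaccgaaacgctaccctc
Cldn5, chr16:18776597-18776896, plus strand: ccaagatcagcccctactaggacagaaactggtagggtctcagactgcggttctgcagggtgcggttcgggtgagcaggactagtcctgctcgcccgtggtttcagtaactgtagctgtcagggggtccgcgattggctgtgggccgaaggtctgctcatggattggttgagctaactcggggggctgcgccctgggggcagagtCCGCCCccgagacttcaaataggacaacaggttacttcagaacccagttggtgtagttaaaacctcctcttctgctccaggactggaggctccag

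The Tie1 window holds 3 ETS matches, at positions 19, 32 and 284 from its 5′ end, and 1 match to the FOX:ETS core at position 42. The first Adgrf5 window has the FOX:ETS core at position 90 and an ETS match at position 194. The Tek window has only a GATA match, at position 287, and the Cldn5 window only an SP1 match, at position 206. ETS matches lay in 4 of the 7 windows, those of Tie1, Eng and Cd34 and the first of Adgrf5. Of all 32851 windows of this length, 46.5% hold one. The FOX:ETS core lay in 2 of the 7 windows, against 8.67% of all windows. A GATA or SP1 match lay in 1 of the 7 each, against 11.2% and 35.7%. No window of the 6 genes held the SOX, Snail E-box or TATA letters, which 12.6%, 20.2% and 13.6% of all windows hold. These matches describe letters in short windows and say nothing of binding.

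Each of the 10 genes had its highest intensity on the Snail-induced Flk1+ array, as did 39.8% of all measured genes. All 10 stood above the floor there, 7 did so on the Snail-induced Flk1- array and 5 on the untreated Flk1- array. By probe set, 12 of 13 were highest on the Flk1+ array, the exception being the dimmer probe set of Cdh5. By their brightest probe sets, Cdh5, Pecam1 and Tie1 reached the floor on the Flk1+ array alone, so they count as measured only through the array on which they were high. The dimmer Cdh5 probe set reached the floor on the untreated array alone, at 29.0.

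**Figure D1:**
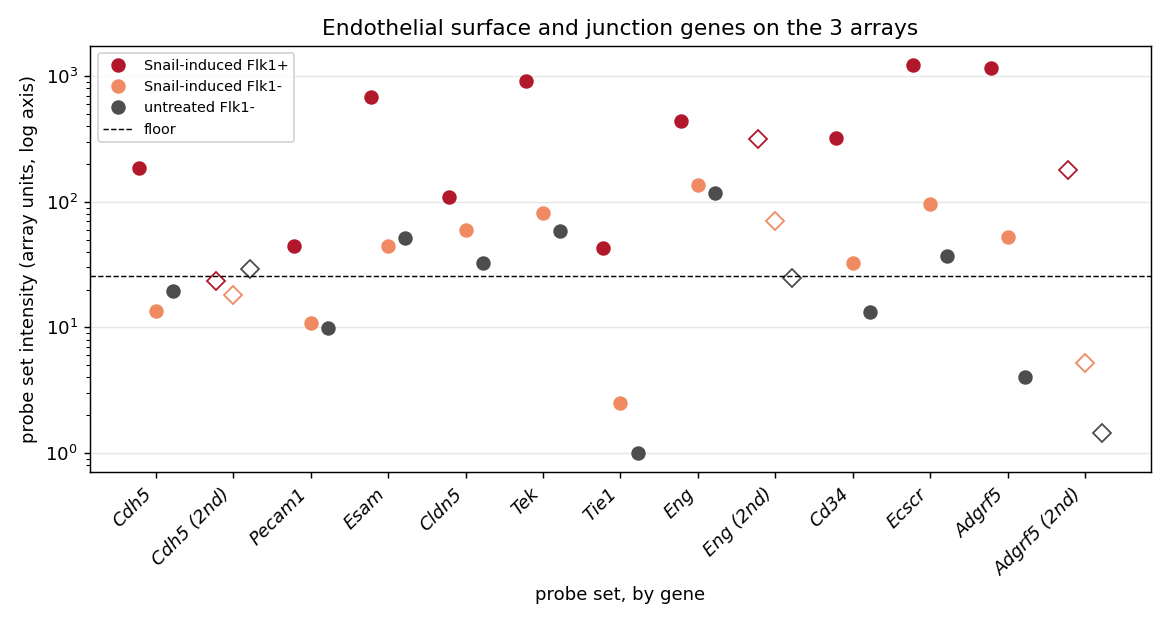
Intensity of each of the 13 probe sets (log axis, array units) on the Snail-induced Flk1+, Snail-induced Flk1- and untreated Flk1- arrays, 1 array each. Filled circles are the brightest probe set of a gene, open diamonds the other one, and the dashed line is the floor of 25.6; every filled red point lies above the filled points of the same gene on the other arrays.

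Among the junction genes, Cdh5 encodes VE-cadherin, the adhesion molecule of endothelial adherens junctions. Its brighter probe set read 187 in Snail-induced Flk1+ cells, 13.5 in Snail-induced Flk1- cells and 19.6 in untreated Flk1- cells. The value was above the floor in Flk1+ cells alone and at least 7.30-fold higher there than in either kind of Flk1- cell. The other probe set did not show this, with 23.4, 18.1 and 29.0 on the same arrays, all close to the floor or under it. The files do not say which part of the transcript each reads.

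Esam encodes an immunoglobulin-type adhesion molecule of endothelial tight junctions. Its probe set read 688 in Snail-induced Flk1+ cells, 44.6 in Snail-induced Flk1- cells and 51.1 in untreated Flk1- cells. The Flk1+ value stood 12.9-fold above the Snail-induced Flk1- value and 11.5-fold above the untreated one, while the Flk1- arrays lay within 1.12-fold of each other. Cldn5, the main claudin of endothelial tight junctions, read 109.96, 59.5 and 32.4 on the Snail-induced Flk1+, Snail-induced Flk1- and untreated Flk1- arrays. The Flk1+ value stood 1.73-fold above the Snail-induced Flk1- value, which in turn stood 1.64-fold above the untreated one, and the whole span was 2.85-fold.

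Pecam1 encodes CD31, an adhesion molecule of endothelial junctions that platelets, leukocytes and mouse embryonic stem cells also carry. Its single probe set read 44.8 in Snail-induced Flk1+ cells, 10.9 in Snail-induced Flk1- cells and 9.87 in untreated Flk1- cells. Only the Flk1+ value exceeded the floor, so the difference is bounded at 1.75-fold or more against both other arrays. The log2 difference of 1.41 within the Snail-induced arrays therefore rests on values under the floor.

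Tek and Tie1 encode the Tie receptors: Tek is the receptor tyrosine kinase that binds angiopoietins, and Tie1 is its orphan relative, which pairs with it. Tek read 919.96 in Snail-induced Flk1+ cells, 82.0 in Snail-induced Flk1- cells and 58.1 in untreated Flk1- cells. All these values lay above the floor, and the Flk1+ value stood 10.2-fold above the Snail-induced Flk1- value and 13.7-fold above the untreated one. Tie1 read 42.8, 2.52 and 1 on the same arrays. The Flk1+ value of Tie1 was the only one above the floor, which bounds the difference at 1.67-fold or more; the log2 difference of 2.12 rests on values under it. The Tek and Tie1 promoter windows printed above share no motif match of the kinds searched.

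Of the 6 other genes of the angiopoietin-Tie axis, 5 were measured. In Snail-induced Flk1+ against Snail-induced Flk1- cells, 1 was past 2-fold higher and 1 lower, where 4.85% and 4.89% of all measured genes were. The higher one was Svep1, at 26.2 in Flk1+ cells and 1.29 in Snail-induced Flk1- cells. Its Flk1+ value was barely above the floor, so the bound is only at least 1.03-fold. Dok2, an adaptor that Tek phosphorylates, read 20.2 and 57.8 and was at least 2.26-fold lower in Flk1+ cells. Angpt1, the activating ligand of Tek, read 168 in Snail-induced Flk1+, 84.6 in Snail-induced Flk1- and 5.17 in untreated Flk1- cells by its brighter probe set. That made it at least 3.31-fold higher in Snail-induced Flk1- than in untreated cells and 1.88-fold higher in Flk1+ than in Snail-induced Flk1- cells. The other Angpt1 probe set read 42.1, 25.4 and 24.8. Angpt2, the context-dependent antagonist, read 97.4, 81.6 and 112, and Ptprb, the phosphatase that acts on Tek and VE-cadherin, read 82.1, 37.5 and 65.9.

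Eng encodes endoglin, a coreceptor for BMP and TGF-beta ligands that is found on endothelium and on early blood and mesodermal progenitors. Its brighter probe set read 442 in Snail-induced Flk1+ cells, 137 in Snail-induced Flk1- cells and 118 in untreated Flk1- cells. The Flk1+ value stood 3.09-fold and 3.54-fold above the other 2. The second probe set read 318, 70.7 and 24.9. It was 4.08-fold higher in Flk1+ than in Snail-induced Flk1- cells, and unlike the first it was also higher in Snail-induced Flk1- than in untreated cells, by at least 2.76-fold.

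Of 10 measured genes of the endoglin receptor complex, 5 were past 2-fold higher in Snail-induced Flk1+ against Snail-induced Flk1- cells and 0 lower. Among all measured genes, 4.85% were higher and 4.89% lower by that much. The median log2 difference of the 10 was 0.84, against 0.00053 for all measured genes. Acvrl1, the BMP type I receptor that endothelium uses with endoglin, read 94.3 in Snail-induced Flk1+ cells, 15.3 in Snail-induced Flk1- cells and 28.0 in untreated cells. It was at least 3.69-fold higher in Flk1+ than in Snail-induced Flk1- cells and 2.76-fold higher than in untreated cells. The type II receptor gene Bmpr2 read 1413, 605 and 562, 2.32-fold higher in Flk1+ than in Snail-induced Flk1- cells. Tgfbr2 and Tgfbr3, which encode the TGF-beta type II receptor and betaglycan, stood at 587 and 587 in Flk1+ cells, 121 and 119.6 in Snail-induced Flk1- cells and 44.5 and 41.5 in untreated cells. Both were past 2-fold on each step by their brightest probe set, although the dimmer Tgfbr3 probe set read 78.2, 43.9 and 49.2. Acvr2b read 1521, 1864 and 1560.

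Cd34 encodes a sialomucin of endothelium and of blood progenitors. It read 320.5 in Snail-induced Flk1+ cells, 32.7 in Snail-induced Flk1- cells and 13.2 in untreated Flk1- cells. The Flk1+ value stood 7.81-fold above the Snail-induced Flk1- value and at least 12.5-fold above the untreated one. Podxl, a sialomucin of the same family that epithelia also make, ran the other way, with 147, 237 and 658 on these arrays.

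Ecscr and Adgrf5 were the genes with a difference past 2-fold on both steps by their brightest probe set. Ecscr encodes a small endothelial membrane protein involved in cell migration, and Adgrf5 an adhesion G protein-coupled receptor of endothelium and lung epithelium. Ecscr read 1222 in Snail-induced Flk1+ cells, 95.6 in Snail-induced Flk1- cells and 37.3 in untreated Flk1- cells, all above the floor. It was 11.7-fold higher in Flk1+ than in Snail-induced Flk1- cells and 2.24-fold higher in Snail-induced Flk1- than in untreated cells. Adgrf5 read 1170.3, 52.8 and 4.05 on these arrays, at least 45.8-fold higher in Flk1+ than in untreated cells and 18.9-fold higher than in Snail-induced Flk1- cells. Its dimmer probe set read 178, 5.25 and 1.45, at least 6.98-fold higher in Flk1+ cells than in either Flk1- array. Both Flk1- readings of that probe set lay under the floor, so it gives no fold between the Flk1- arrays.

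The comparison of Snail-induced Flk1+ with Snail-induced Flk1- cells asks what accompanied Flk1 within induced cells. Of the 10 genes, 9 were past 2-fold higher on the log2 scale and 0 lower, where 4.85% of all 13969 measured genes were past 2-fold higher. The median log2 difference was 3.03, with a range of 0.79 to 4.24, against 0.00053 for all measured genes. Cldn5 was the gene short of 2-fold. When every reading under 25.6 was raised to 25.6 and the offset dropped, an alternative chosen after seeing the data, 7 were past 2-fold, without Pecam1 and Tie1, which had only a bound. Ranked from the top of all measured genes, Adgrf5 was at 18, Esam at 30, Ecscr at 34, Tek at 42, Cdh5 at 52 and Cd34 at 63. Tie1 was at 119, Eng at 230, Pecam1 at 325 and Cldn5 at 1068. The ranks of Cdh5, Tie1 and Pecam1 rest on a Snail-induced Flk1- reading under the floor.

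**Figure D2:**
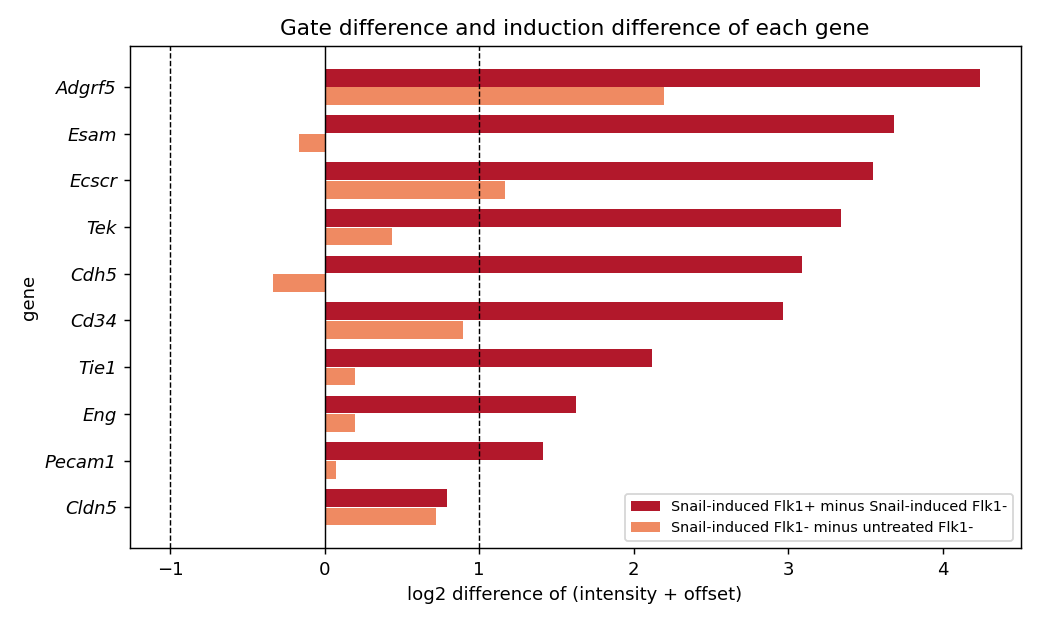
Log2 difference of intensity plus offset for each of the 10 genes, ordered by the difference of Snail-induced Flk1+ minus Snail-induced Flk1- (red) with that of Snail-induced Flk1- minus untreated Flk1- below it (orange); dashed lines mark 2-fold. The red bars run from 0.79 for Cldn5 to 4.24 for Adgrf5, and only Ecscr and Adgrf5 have orange bars past 2-fold.

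The comparison of Snail-induced Flk1- with untreated Flk1- cells asks what differed with induction in cells that stayed outside the gate. Here 2 of the 10 genes, Ecscr and Adgrf5, were past 2-fold higher and 0 lower, where 2.95% of all measured genes were past 2-fold higher. The median log2 difference was 0.32, against 0.038 for all measured genes. Among the other genes, Cldn5 stood at a log2 difference of 0.72 and Tek at 0.44. Cd34, under the floor in untreated cells, was at least 1.28-fold higher, and Adgrf5, also under it there, at least 2.07-fold. Esam and Cdh5 were the genes with a lower value after induction, at -0.16 and -0.34. For Cdh5, Pecam1 and Tie1 both values lay under the floor, so no fold is given. Among genes above the floor on all 3 arrays, the share of the log2 difference between Flk1+ and untreated cells that lay between the Flk1- arrays was 47.6% for Cldn5, 24.7% for Ecscr, 11.6% for Tek, 10.8% for Eng and -4.61% for Esam. The Eng share is that of its brighter probe set. The other Eng probe set had log2 differences of 1.22 between the Flk1- arrays and 3.25 between Flk1+ and untreated cells. Its untreated reading lay under the floor.

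The comparison of Snail-induced Flk1+ with untreated Flk1- cells shares its arrays with the other comparisons and joins gate and induction. All 10 genes were past 2-fold higher on the log2 scale, and 0 lower, where 8.10% of all measured genes were past 2-fold higher and 6.41% lower. Their median log2 difference was 3.14, against 0.015 for all measured genes. Among genes above the floor on both arrays, the differences ran from 1.51 for Cldn5 to 4.72 for Ecscr. Adgrf5 is known only to be at least 45.8-fold higher, because its untreated reading lay under the floor; its log2 difference of 6.44 became 5.20 with an offset 3 times larger, 8.17 with none and 5.52 with that reading raised to the floor. Folds or bounds reached 2-fold for 8 genes, all but Pecam1 and Tie1.

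**Figure D3:**
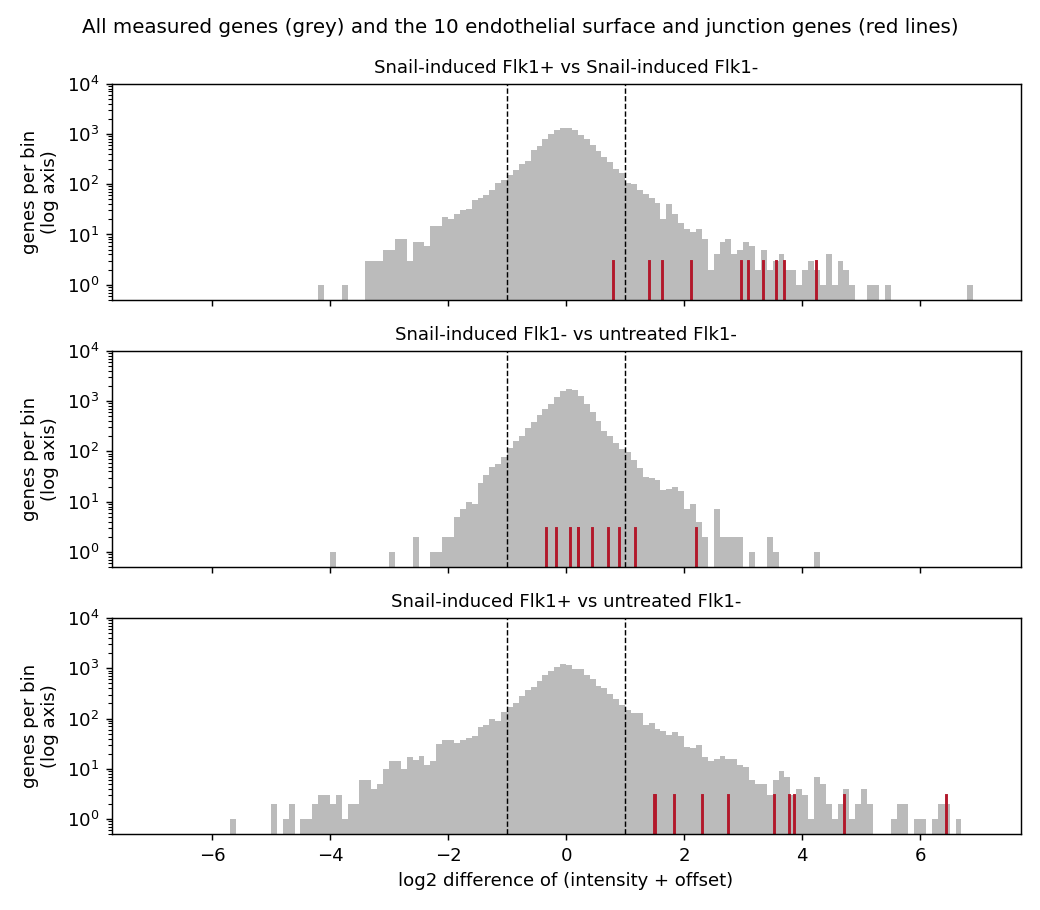
Histograms of log2 differences (intensity plus offset) over the 13969 measured genes in the 3 comparisons, with genes per bin on a log axis, red lines at the 10 endothelial genes and dashed lines at 2-fold. Red lines lie mostly to the right of 2-fold in the top and bottom panels and mostly between the dashed lines in the middle one, Snail-induced Flk1- against untreated Flk1-.

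Partners of VE-cadherin ranged from bright catenin genes to the dim Ptprb, and none differed by 2-fold across the gate. Of 7 measured partner genes, 0 were past 2-fold in either direction between Snail-induced Flk1+ and Snail-induced Flk1- cells, with a median log2 difference of 0.25. Among all measured genes, 4.85% were past 2-fold higher and 4.89% lower. Ctnnb1 (beta-catenin), which links cadherins to the cytoskeleton and also serves Wnt signalling, read 11329 in Snail-induced Flk1+, 10412 in Snail-induced Flk1- and 9659 in untreated cells. Vcl (vinculin) read 4433, 2573 and 2163, 1.72-fold higher in Flk1+ than in Snail-induced Flk1- cells. Ctnnd1, the p120 catenin that keeps cadherins at the membrane, read 763, 463 and 453, 1.64-fold higher on the same comparison. Ptprb, with the values given above, was the gene of this list that differed most, at 1.95-fold.

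Among 8 measured tight and gap junction genes of endothelium, 3 were past 2-fold higher and 1 lower in Snail-induced Flk1+ against Snail-induced Flk1- cells. The shares of all measured genes were 4.85% and 4.89%, and the median log2 difference of the 8 was 0.086. Tjp1, the scaffold protein ZO-1, read 4059 in Snail-induced Flk1+, 1801 in Snail-induced Flk1- and 2012 in untreated cells, 2.25-fold higher in Flk1+ than in Snail-induced Flk1- cells. F11r, a junctional adhesion molecule shared by epithelium and endothelium, read 1386, 642 and 1067, and the connexin gene Gja4 read 70.95, 25.7 and 24.1. Jam2, a related adhesion molecule, read 68.3, 320 and 204, 4.23-fold lower in Flk1+ than in Snail-induced Flk1- cells, and all 5 of its probe sets were lower there. Jam3 read 327, 348 and 321.

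Junction genes of epithelium were mostly lower where Cdh5 and Esam were higher, in Flk1+ cells, and were lower in Snail-induced Flk1- cells too. All 8 measured were past 2-fold lower in Snail-induced Flk1- against untreated cells, where 2.03% of all measured genes were, and 6 of 8 were past 2-fold lower in Snail-induced Flk1+ against Snail-induced Flk1- cells, where 4.89% were. Cdh1, which encodes E-cadherin, read 624 in Snail-induced Flk1+, 3086 in Snail-induced Flk1- and 6338 in untreated cells, 4.89-fold lower in Flk1+ than in Snail-induced Flk1- cells and a further 2.05-fold between the Flk1- arrays. Cldn6 read 13.6, 229.5 and 1151, at least 8.98-fold lower in Flk1+ than in Snail-induced Flk1- cells. Cldn3 read 168, 131 and 327, 1.26-fold higher in Flk1+ than in Snail-induced Flk1- cells by its brightest probe set, while its other probe sets were lower or under the floor.

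**Figure D4:**
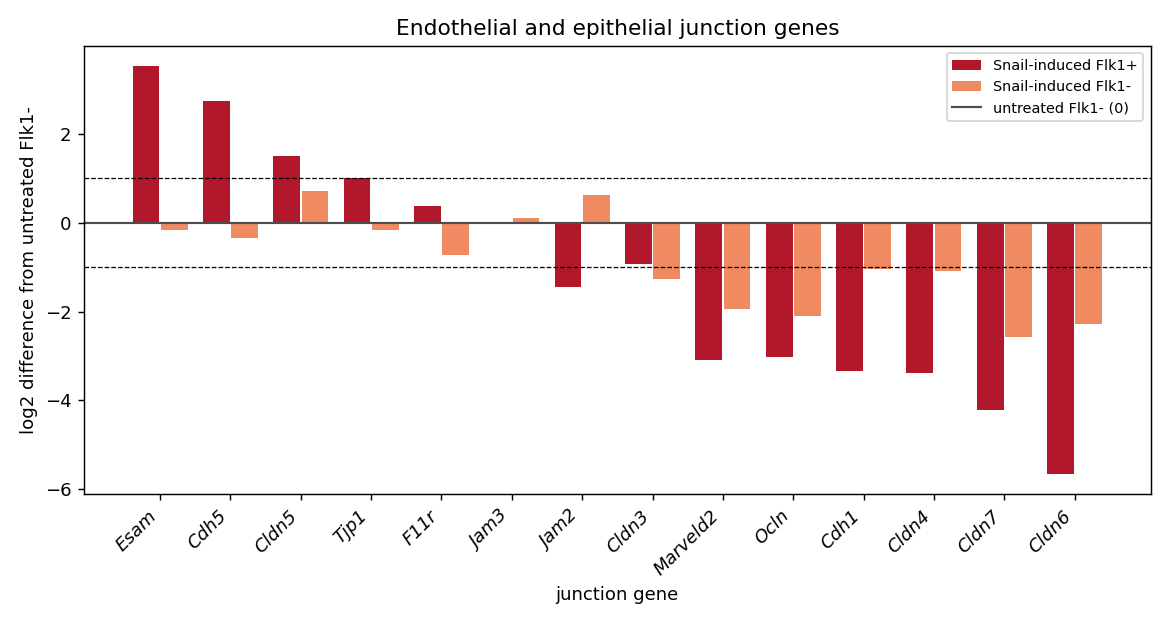
Log2 difference from the untreated Flk1- array for 14 junction genes, for Snail-induced Flk1+ (red) and Snail-induced Flk1- (orange), with the untreated array at 0 and dashed lines at 2-fold. Esam, Cdh5 and Cldn5 stand above 0 in Flk1+ cells, while Cdh1, Cldn4, Cldn6, Cldn7, Ocln and Marveld2 stand below it in both.

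Of 21 other measured endothelial surface genes, 13 were past 2-fold higher in Snail-induced Flk1+ against Snail-induced Flk1- cells and 0 lower. The shares of all measured genes were 4.85% and 4.89%. The median log2 difference of the 21 was 1.34. Clec14a and Thbd are among the 13, but their Snail-induced Flk1- readings lay under the floor. Their bounds, at least 1.93-fold and at least 1.57-fold, fall short of 2-fold. Flt1, a VEGF receptor, read 556 in Snail-induced Flk1+, 16.4 in Snail-induced Flk1- and 18.2 in untreated cells, at least 21.7-fold higher in Flk1+ than in either. Icam2, an adhesion molecule of endothelium and leukocytes, read 215, 10.1 and 3.73, at least 8.42-fold higher. Calcrl, the adrenomedullin receptor, read 1277, 51.2 and 5.93, 21.2-fold higher in Flk1+ than in Snail-induced Flk1- cells. Another Calcrl probe set read 133, 56.4 and 58.7. Its log2 difference was 1.11 between the Snail-induced arrays and -0.049 between the Flk1- arrays. The accessory protein genes of Calcrl differed from each other. Ramp2 read 3657, 345 and 170.0, 10.3-fold higher in Flk1+ than in Snail-induced Flk1- cells, while Ramp3 read 302, 350 and 608.

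Genes of mature vascular beds were measured for 8 of 14, at a median log2 difference of 0.71 in Snail-induced Flk1+ against Snail-induced Flk1- cells. Of the 8, 3 were past 2-fold higher and 0 lower, where 4.85% and 4.89% of all measured genes were. Plvap, a component of endothelial fenestrae and caveolae, read 151 in Snail-induced Flk1+, 25.4 in Snail-induced Flk1- and 35.99 in untreated cells. Ackr1, a chemokine receptor of venules and red cells, was the brightest in Flk1+ cells, with 305 there, 117 in Snail-induced Flk1- and 97.7 in untreated cells, 2.49-fold higher in Flk1+ than in Snail-induced Flk1- cells. Nos3, endothelial nitric oxide synthase, read 227, 89.6 and 87.5, and the scavenger receptor gene Stab1 read 183, 88.9 and 77.8. Ackr1, Nos3 and Stab1 were above the floor on every array. Vwf, Lyve1, Stab2, Selp, Cd36 and Aqp1 lay under the floor on all 3 arrays.

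Genes of transcription regulators of endothelium were mostly higher on the Flk1+ array too. Of 15 measured, 14 were past 2-fold higher in Snail-induced Flk1+ against Snail-induced Flk1- cells and 6 in Snail-induced Flk1- against untreated cells, with 0 lower in either. Past 2-fold higher in these comparisons were 4.85% and 2.95% of all measured genes. Of the 6, Sox18 read 30.2 in Snail-induced Flk1- and 3.33 in untreated cells, a bound of only at least 1.18-fold. The ETS factor gene Fli1 read 2632, 147 and 16.8 in Snail-induced Flk1+, Snail-induced Flk1- and untreated cells, so that it was past 2-fold on both steps like Adgrf5 and Ecscr, though its second probe set, at 1586, 67.2 and 43.6, was not on the induction step. The related Erg read 317, 4.17 and 1, above the floor in Flk1+ cells alone like Cdh5 and Tie1. The dimmer Erg probe set read 17.97, 4.61 and 5.06, under the floor on every array.

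**Figure D5:**
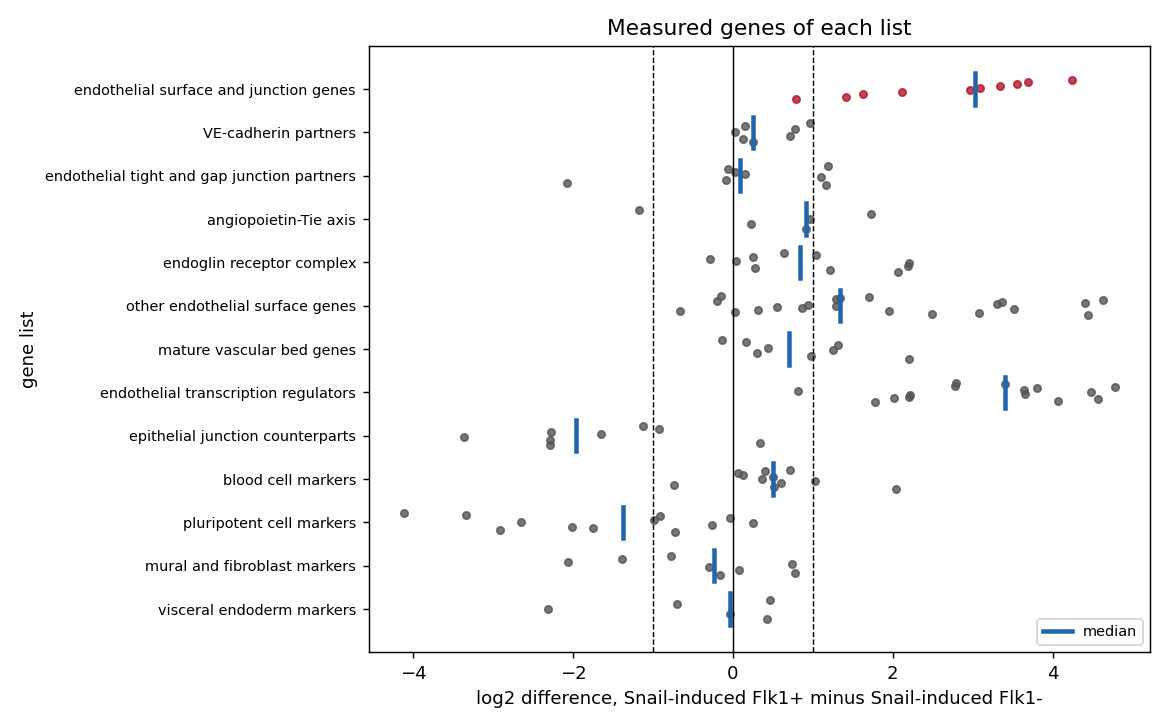
Log2 difference of Snail-induced Flk1+ minus Snail-induced Flk1- for the measured genes of each list (points) with the list median (blue bar); dashed lines mark 2-fold. The 10 endothelial surface and junction genes (red) have a median of 3.03, the transcription regulators 3.40, and the epithelial junction genes -1.96.

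Markers of other cells that the gate could hold were read beside these values. Blood genes matter most, since Cd34, Eng, Tek and Pecam1 are also made by blood progenitors or platelets. Of 11 measured blood markers, 2 were past 2-fold higher in Snail-induced Flk1+ against Snail-induced Flk1- cells and 0 lower. Among all measured genes, 4.85% were higher and 4.89% lower by that much. The median log2 difference of the 11 was 0.50. The summed intensity of the 14 with a probe set was 804 in Flk1+, 576 in Snail-induced Flk1- and 803 in untreated cells. Under the floor on these arrays were 4, 8 and 6 of them, and Itga2b alone read 262, 182 and 295. Tal1 and Lmo2, listed with the transcription regulators, are not in these sums. Tal1 read 960, 67.45 and 61.2, and Lmo2 read 1955, 78.8 and 98.5. Hba-x, an embryonic globin gene, read 38.1, 13.9 and 17.5 on these arrays, at least 1.49-fold higher in Flk1+ than in either kind of Flk1- cell. Runx1, a regulator of blood formation, read 143, 83.1 and 96.3, 1.64-fold higher in Flk1+ than in Snail-induced Flk1- cells, and the macrophage gene Cd68 read 60.04, 107 and 114.5. Itgam, Hbb-y and Klf1 were under the floor on every array, and Gata1 read 44.5, 32.6 and 51.3. Ptprc, a leukocyte gene, read 60.6, 7.46 and 38.4, while its other probe set read 1.36, 14.5 and 5.37.

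The 12 pluripotency markers summed to 14856 in Snail-induced Flk1+, 26415 in Snail-induced Flk1- and 24929 in untreated cells. Of the 12, 6 were past 2-fold lower in Flk1+ against Snail-induced Flk1- cells and 0 higher. The shares of all measured genes on that comparison were 4.89% lower and 4.85% higher. The 10 mural and fibroblast markers summed to 1806, 1761 and 1429, with 2 of 8 measured past 2-fold lower and 0 higher on that comparison. Of the 2, Dcn read 58.6 in Flk1+ and 276 in Snail-induced Flk1- cells. Lum read 2.57 and 22.1 there, both under the floor, so no fold is given for it. The 8 visceral endoderm markers summed to 935, 1053 and 611, with 1 of 5 measured lower and 0 higher, and Ttr, Afp and Apoa1 under the floor on all arrays. The deposited values start at 0.50, so a reading above 0 does not show that a marker was detected. The part of the cells that these lists mark in the results above was not tested.

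Genes with a pattern closest to the 10 were sought by the distance between their log2 differences on the 2 steps and the medians of the 10 genes, 0.32 and 3.03, over 3 arrays. The nearest 5 outside the set were Sgpp1, Clec1b, Gem, Bmp6 and Rgs2, at distances of 0.17 to 0.32. Sgpp1, a sphingosine-1-phosphate phosphatase, read 2488 in Snail-induced Flk1+, 268 in Snail-induced Flk1- and 199 in untreated cells. Bmp6, a BMP ligand gene, read 236, 26.9 and 19.8. Clec1b, which was not on the list of blood markers, read 249, 19.55 and 16.8 on these arrays. That made it at least 9.75-fold higher in Flk1+ than in either kind of Flk1- cell.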

How the data were processed

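The authors deposited linear-scale intensities, 1 for each probe set on each array, between 0.50 and 18191 by the values; per the labels' protocols, biotinylated cRNA was prepared by the standard Affymetrix procedure. How probe sets were summarised and scaled, and the software, were not stated in those protocols or in the file. Names came from the platform annotation, brought to current symbols with Entrez IDs and RefSeq's GRCm38.p6 table: of 45037 probe sets 34945 had 1 symbol, 932 several and 9160 none, and 204 single symbols stayed as annotated. Python 3.11.15 with pandas 2.3.3 and numpy 2.4.6 was used. Intensities became log2(value + 9.53), where 20 percent of values lie under that offset; it shrinks the differences of dim genes. Each gene took its probe set with the highest mean log2 value. That the mean is of log2 values and not of intensities was settled after several such rules had been compared on these data and with earlier counts from them; with mean intensities 13974 genes are measured, the probe sets of the 10 genes are the same, and Gata2 changes its probe set. A gene was measured at or above 25.6 on at least 1 array. Differences past 2-fold were counted with no test, because each group has 1 array. Members, lists, motifs and alternatives were chosen with earlier results of these data known. Lists name up to 4 genes with the largest difference between the Snail-induced arrays plus up to 2 of opposite sign. The text gives part of these. Ctnnb1, Angpt2, Ramp2, Clec14a, Thbd, Cldn7, Ocln, Marveld2, Gata1, Itga2b and Tal1 were chosen after their values were seen. So were the genes named for being under the floor and the genes under other observations. The counting step was tested on simulated data. Promoter sequences are RefSeq's.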

Additional observations from a re-analysis of the deposited data

How the results depend on the processing

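Of 294 values of single genes under the alternatives, 267 stayed within 1.5-fold of the reported difference and 27 moved further. The sign changed for 1 of them, Pecam1 between the Flk1- arrays, at -0.025 with median centring in place of 0.073, both readings being under the floor. Scaling mattered little: with quantile normalisation or centring of each array on its median, 9, 2 and 10 of the 10 genes stayed past 2-fold in the 3 comparisons, namely Flk1+ against Flk1- within the Snail-induced culture, induction within Flk1- cells, and Flk1+ against untreated cells. The offset decided more. In Snail-induced Flk1- against untreated Flk1- cells, 4 genes were past 2-fold with no offset, 1 with an offset 3 times larger, and 1 at a 3-fold threshold, in place of 2. The median in Snail-induced Flk1+ against Snail-induced Flk1- cells was 2.43 with the larger offset, in place of 3.03, and the median against untreated cells was 3.87 with no offset, in place of 3.14. With the floor at the 60th percentile Pecam1 and Tie1 were not measured, and 7 of 8 genes were past 2-fold between the Snail-induced arrays. With the mean of all probe sets the Cdh5 difference between the Snail-induced arrays was 1.67, in place of 3.09, because its dimmer probe set did not differ by 2-fold. None of the 13 probe sets has the suffix _s_at or _x_at, so leaving out such probe sets changed nothing for the 10 genes; those of Pecam1 and Eng have the suffix _a_at, for several transcripts of a gene, and were kept. The probe set of highest mean intensity, an alternative added after seeing the data, also changed nothing for them.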

Other observations

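Probe sets of the same gene disagreed for some endothelial genes outside the 10, which were picked after their values were seen. Gata2, a factor of endothelial and blood progenitors, was the only measured transcription regulator short of 2-fold between the Snail-induced arrays. Its probe set with the highest mean log2 value read 323 in Snail-induced Flk1+, 181 in Snail-induced Flk1- and 242 in untreated cells. Its other probe set read 1010.6, 11.3 and 4.67, at a log2 difference of 5.62 between the Snail-induced arrays; were it taken, 15 of 15 regulators would be past 2-fold higher. Cd93, a surface glycoprotein of endothelium, had 5 probe sets, of which the one with the highest mean log2 value read 38.7 in Snail-induced Flk1+, 23.4 in Snail-induced Flk1- and 29.0 in untreated cells, and another read 51.2, 5.15 and 17.7. Mmrn2, an endothelial matrix protein gene, read 132, 147 and 257 by a probe set with the suffix _x_at and 66.9, 16.6 and 15.6 by another. Nrp2, another endothelial surface gene, read 136, 133 and 194 on these arrays by the probe set taken for it. Another of its probe sets read 376, 18.1 and 13.2, at a log2 difference of 3.80 between the Snail-induced arrays. The count of 13 of 21 surface genes therefore depends on which probe set is taken.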
